A study of Rattus norvegicus with 2 samples.

Results

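Tubulins, stathmins and microtubule-associated proteins (MAPs) were examined as one set of genes in the sympathetic neurons of the rat stellate ganglion. This ganglion holds neurons that innervate the heart and others that do not. Members were chosen by gene symbol alone: alpha, beta and gamma tubulins with the gamma-tubulin complex genes, stathmins, the Map1, Map2, Map4, Map6, Map7, Map9 and Mapt genes, the doublecortin family, the tubulin folding cofactors Tbca to Tbce, and the Mapre, Clip, Clasp and Camsap genes. The symbol rule found 63 members among 25395 genes. It also takes in Map10 and the LC3 genes Map1lc3a and Map1lc3b, whose proteins are best known from autophagy. Ganglia of male normotensive Wistar rats and male prehypertensive spontaneously hypertensive rats (SHRs), of 5 to 6 weeks of age, were dissociated with collagenase and trypsin and sequenced one cell at a time with droplet 3′ chemistry. The labels name no treatment. Each strain is represented by 1 library, and the number of animals behind it is not given in the sources used here. The SHR is an inbred line bred from Wistar Kyoto rats, whereas Wistar rats are outbred. The deposited value of a gene is a mean over the sympathetic neuron cluster of a library, given here as mean counts per 10000 counts of a cell.

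Since each strain has a single library, no difference below has an error or a test, and strain cannot be told apart from library. The number of neurons and their depth are unknown, so no counting interval can be stated either. A log2 difference here is the log2 of 1 plus the SHR mean minus that of 1 plus the Wistar mean, which understates the change of genes with low means. The percent change of the mean has no such limit. The chemistry counts 1 end of each transcript, so levels on the scale of counts per 10000 were compared between genes without dividing by transcript length.

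Microtubules are hollow polymers of alpha and beta tubulin dimers that form the tracks for transport along axons and dendrites. Neurons express several tubulin isotypes, which differ most in their carboxy-terminal tails, and decorate the polymer with MAPs such as tau and MAP2 that bind along its wall. Stathmins bind free tubulin dimers and promote disassembly, plus-end proteins ride on the growing tip, CAMSAPs hold the minus end, and gamma tubulin complexes nucleate new polymers. Sympathetic neurons are a classical source for the study of these proteins, and stathmin 2 was first described as the superior cervical ganglion gene SCG10.

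A few members were among the most abundant transcripts of these neurons, and 14 averaged at least 5 per 10000. Together the 63 members summed to 405.7 per 10000 in Wistar and 442.6 in SHR, or 4.06% and 4.43% of all counts. Of the 63 members, 49 had an average over both libraries of at least 0.1 per 10000, the minimum used below. A further 8 were above 0 but under this minimum, and 6 were listed at 0 in both libraries. Among the 49, 29 were lower in SHR and 20 were higher. The share lower was 59.2%, and over all 7621 genes past the minimum it was 65.6%. Map2 and Dclk1 alone had log2 differences of -0.5 or lower, and these 2 of 49 members stand beside 2.15% of all genes. A difference of 0.5 or higher was seen in 0 members and in 1.23% of all genes. The median log2 difference was -0.11 over the 49 members and -0.05 over all genes past the minimum, so the set as a whole lay close to the background.

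Within the set the direction differed by kind of protein. Alpha and beta tubulins and stathmins were mostly higher in SHR, in 11 of 13 genes past the minimum, with a median log2 difference of 0.18. Of all genes past the minimum 34.4% were higher. Of those averaging at least 5, as most of these 13 did, 72.2% were higher, with a median of 0.24. The other members were mostly lower, in 27 of 36 genes (75.0%, beside 65.6% of all genes past the minimum), with a median of -0.16. The plot of members by role shows the gene groups side by side. This contrast was seen in 1 library per strain and was not tested, and the roles differ in abundance and in gene span, whose values are given further on.

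**Figure D1:**
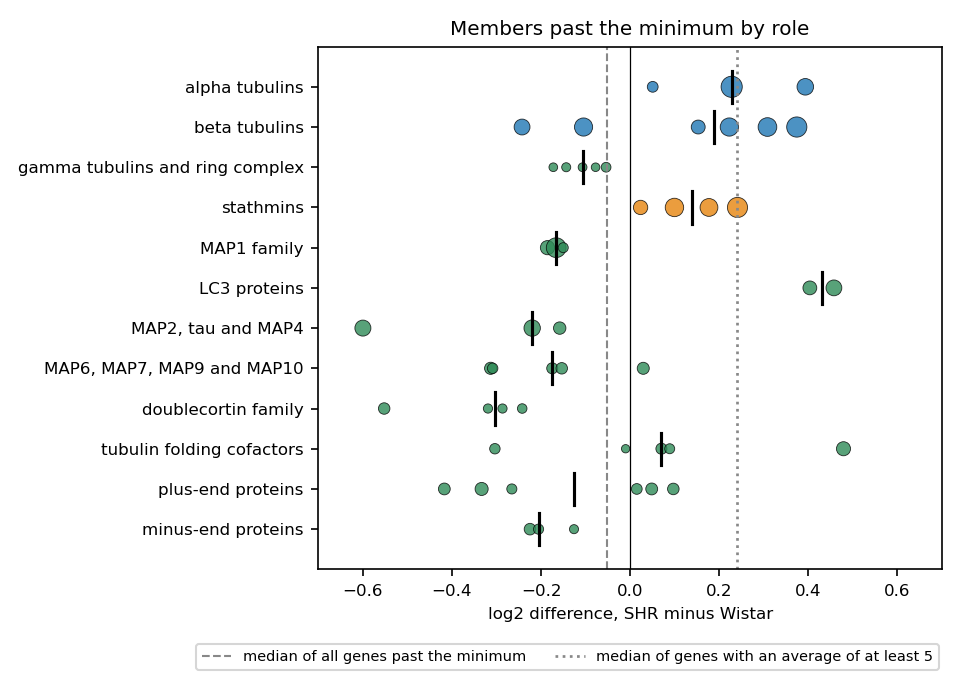
Each point is a member past the minimum of 0.1 per 10000, placed by its log2 difference (SHR minus Wistar) in the row of its role, with larger points for higher average means and a black bar at the median of the row. The alpha tubulins, stathmins and LC3 genes lie right of 0, and the MAP1 family, MAP2 with tau and MAP4, the doublecortin family, the minus-end proteins and the gamma tubulin genes lie left of it; the dashed line is the median of all genes (-0.05) and the dotted line that of genes averaging at least 5 per 10000 (0.24).

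Neuron markers were abundant in the cluster. Of 10 sympathetic neuron markers all 10 passed the minimum, among them Th (10.2 per 10000 in Wistar, 10.1 in SHR) and Prph (58.0 and 67.6). In SHR 6 of the 10 were lower and 4 higher, beside 65.6% of all genes past the minimum lower. Their log2 differences ran from -0.61 in Dbh (10.2 and 6.36) to 0.42 in Snap25 (17.4 and 23.7). Markers of glia, endothelium, fibroblasts, immune cells, smooth muscle and erythrocytes were also listed, and over 33 genes they summed to 22.9 per 10000 in Wistar and 12.3 in SHR. The 10 of these that passed the minimum were all lower in SHR, beside 65.6% of all genes past the minimum. Of the 10, S100b, Cdh19, Col1a1 and Dcn were under 0.1 in SHR and passed only through their Wistar means. Under the minimum, Ptprc, Acta2 and Tagln were higher in SHR. The glial genes Apoe (6.24 and 2.23) and Pmp22 (11.3 and 8.58) made up most of the sum. Of the 33, Kcnj10 and Rgs5 were listed at 0 in SHR and none at 0 in Wistar. Many tubulins and MAPs are also made by such cells, and the part of these transcripts in the differences below was not tested. The 5 markers of cycling cells were all under the minimum, and summed to 0.0562 per 10000 in Wistar and 0.0256 in SHR.

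Alpha tubulin came almost wholly from Tuba1a, the isotype known for its role in growing neurons. Tuba1a averaged 76.5 per 10000 in the Wistar neurons and 89.7 in the SHR neurons, and held rank 10 of all genes in both libraries. This was 17.3% more in SHR (log2 difference 0.23). Its neighbour in the genome Tuba1b, a widely expressed isotype, had means of 8.98 and 12.1 per 10000, higher in SHR by 34.8% (log2 difference 0.39). Tuba4a, which encodes an alpha tubulin without the genetically coded terminal tyrosine, was at 0.859 in Wistar and 0.925 in SHR. The remaining alpha tubulin genes were hardly seen. Tuba8 and Tuba1c were at most 0.00944 per 10000 in either library, and Tuba3a, Tuba3b and Tubal3 were listed at 0. As a share of the summed alpha tubulin mean, Tuba1a made up 88.6% in Wistar and 87.3% in SHR, and Tuba1b 10.4% and 11.8%. A share within a family does not depend on how the libraries are scaled. The coding sequences of Tuba1a, Tuba1b and Tuba1c are nearly alike, and reads that match several genes are usually not counted, so the split among them is uncertain.

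Beta tubulin was spread over several isotypes, led by the neuronal isotype Tubb3. Tubb3 averaged 44.8 per 10000 in the Wistar neurons and 58.4 in the SHR neurons, a percent change of 30.3% and a log2 difference of 0.37. Tubb5 (22.9 and 28.6 per 10000, log2 difference 0.31), Tubb2b (19.4 and 22.8, 0.22) and the less abundant Tubb4a (3.30 and 3.78, 0.15) were also higher in SHR. Against this direction, Tubb2a was at 21.3 in Wistar and 19.8 in SHR (log2 difference -0.10), and Tubb4b, a broadly expressed isotype, at 8.59 and 7.10 (-0.24). Tubb6 was under the minimum and Tubb1, the platelet isotype, was listed at 0. The listed mix of isotypes therefore differed between the libraries. Tubb3 supplied 37.2% of the summed beta tubulin mean in Wistar and 41.6% in SHR. Tubb2a supplied 17.7% and 14.1%, and Tubb4b 7.14% and 5.06%. Tubb2b and Tubb2a, whose proteins are nearly identical, changed places, with a Tubb2b to Tubb2a ratio of 0.907 in Wistar and 1.15 in SHR. Reads shared by these paralogs make the split between them uncertain as well. Summed alpha tubulin stood to summed beta tubulin at 0.717 in Wistar and 0.732 in SHR, so the families kept nearly the same proportion.

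**Figure D2:**
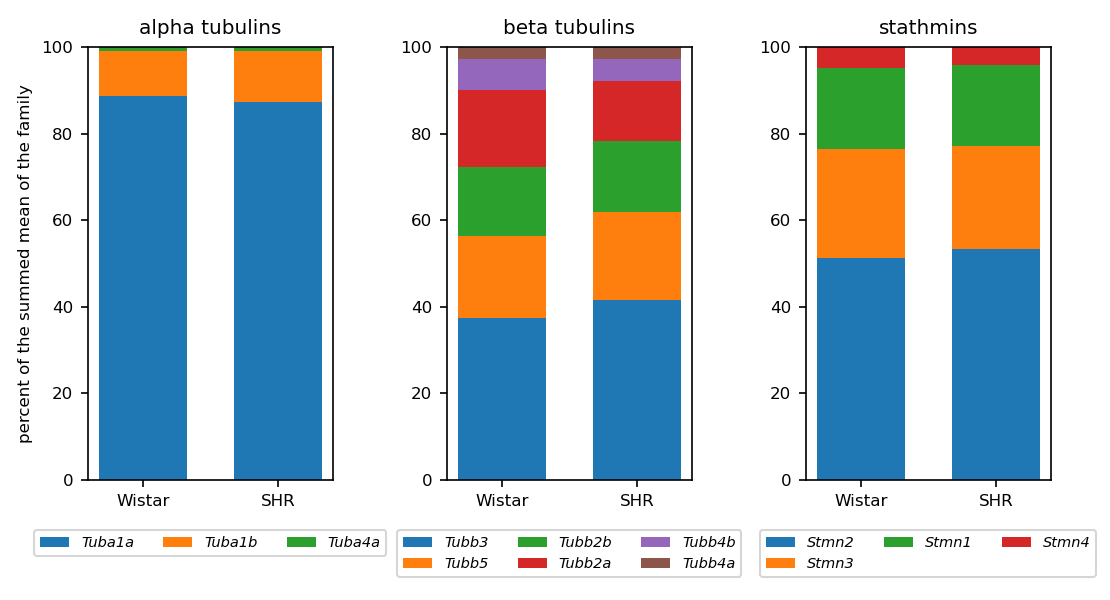
Bars show each gene as a percent of the summed mean of its family (vertical axis, 0 to 100%) in the Wistar and SHR libraries, for genes above 0.5% of their family. Tuba1a fills most of the alpha tubulin bar in both, Tubb3 takes a larger share of beta tubulin in SHR (41.6% against 37.2%), and Stmn2 makes up 51.2% and 53.2% of the stathmins.

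Among the abundant tubulin and stathmin families, members past the minimum differed in direction in the beta tubulins alone, so the stretches around the starts of the lower isotypes Tubb2a and Tubb4b and of the higher isotypes Tubb2b and Tubb3 are shown. Each runs 5′ to 3′ from 250 bases before to 50 bases after the start that RefSeq gives on the GRCr8 assembly, which is not the Rnor_6.0 build behind the deposited values. Capitals mark matches on either strand to the GC box GGGCGG, the CCAAT box CCAAT and the TATA box TATAAA. No motif is contained in another. Tubb2a lies at chr17:31001936-31002235 (plus strand), Tubb4b at chr3:28438406-28438705 (minus strand), Tubb2b at chr17:30952836-30953135 (plus strand) and Tubb3 at chr19:68365437-68365736 (plus strand).
Tubb2a: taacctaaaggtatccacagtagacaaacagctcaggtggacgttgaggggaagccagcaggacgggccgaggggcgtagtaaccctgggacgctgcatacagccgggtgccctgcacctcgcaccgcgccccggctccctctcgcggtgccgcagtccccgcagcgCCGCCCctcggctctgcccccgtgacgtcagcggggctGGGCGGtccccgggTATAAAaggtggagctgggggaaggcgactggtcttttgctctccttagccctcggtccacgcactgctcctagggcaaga
Tubb4b: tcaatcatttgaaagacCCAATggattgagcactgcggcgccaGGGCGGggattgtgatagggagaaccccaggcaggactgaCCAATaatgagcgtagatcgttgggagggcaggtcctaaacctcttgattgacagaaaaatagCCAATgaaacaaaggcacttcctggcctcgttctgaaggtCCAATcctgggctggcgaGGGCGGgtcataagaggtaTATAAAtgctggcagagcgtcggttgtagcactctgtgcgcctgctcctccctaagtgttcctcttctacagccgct
Tubb2b: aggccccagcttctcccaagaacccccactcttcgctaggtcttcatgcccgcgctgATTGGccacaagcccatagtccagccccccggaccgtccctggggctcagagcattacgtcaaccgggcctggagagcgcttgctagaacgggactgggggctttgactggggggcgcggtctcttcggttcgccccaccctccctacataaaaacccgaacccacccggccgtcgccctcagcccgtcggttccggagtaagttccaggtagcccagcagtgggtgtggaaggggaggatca
Tubb3: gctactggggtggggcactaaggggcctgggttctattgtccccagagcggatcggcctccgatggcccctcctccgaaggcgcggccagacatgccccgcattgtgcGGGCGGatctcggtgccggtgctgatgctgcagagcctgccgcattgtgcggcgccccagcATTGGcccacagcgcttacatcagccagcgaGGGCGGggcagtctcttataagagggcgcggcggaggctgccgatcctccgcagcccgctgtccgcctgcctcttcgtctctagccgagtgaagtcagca

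Among the 6 beta tubulin promoters, TATAAA was found in Tubb2a and Tubb4b, the isotypes lower in SHR, once in each. It was in none of the 4 others, a pattern noticed after the values were seen. Of all 41 members past the minimum with a RefSeq promoter, 7 held TATAAA (17.1%), 25 held the GC box (61.0%) and 20 held the CCAAT box (48.8%). Over the 6091 genes past the minimum with a promoter the shares were 5.93%, 66.7% and 38.1%, and over all 27457 promoters they were 14.3%, 34.9% and 37.7%. TATAAA was also in Map1b, Clasp2, Dcx and Tubgcp2, which were lower, and in Mapre1, which was higher, so that 6 of the 7 members with it were lower. Of all 49 members, with or without a promoter, 29 were lower, and of all genes past the minimum 65.6% were. The share lower among all genes with TATAAA was not computed, so the 6 of 7 has no background of its own. These matches describe the letters of the window and not a site in use.

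All 4 stathmin genes were listed higher in SHR, by small amounts. Of all genes averaging at least 1 per 10000, 54.5% were higher. Of those averaging at least 5, as all stathmins but Stmn4 did, 72.2% were higher. Stmn2, the neuronal stathmin of axons, averaged 45.3 per 10000 in the Wistar neurons and 53.7 in the SHR neurons (18.6%, log2 difference 0.24). Stmn1, the broadly expressed founder of the family, was at 16.6 and 18.9 (0.18), and Stmn3 at 22.3 and 24.0 (0.10). Stmn4 was the least abundant, at 4.22 and 4.31 (0.02), so that its means were almost the same. Stmn2 made up 51.2% of the summed stathmin mean in Wistar and 53.2% in SHR, Stmn3 25.3% and 23.8%, and Stmn1 18.7% in both. The family sum was 88.4 per 10000 in Wistar and 100.8 in SHR. This sum was higher in SHR by 14.1%, and the summed alpha and beta tubulin mean by 17.7%.

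The MAPs of the MAP1 family were lower in SHR in all 3 genes, beside 65.6% of all genes past the minimum and 45.5% of those averaging at least 1. Map1b, the MAP of growing axons, was the most abundant MAP at 44.3 per 10000 in Wistar and 39.3 in SHR, a percent change of -11.1% and a log2 difference of -0.17. Map1a, its adult counterpart, was at 4.32 and 3.68 (-0.19), and the ubiquitous Map1s at 0.647 and 0.485 (-0.15). The percent changes of Map1a (-14.9%) and Map1s (-25.2%) were lower than that of Map1b. Map1b exceeded Map1a by a ratio of 10.2 in Wistar and 10.7 in SHR. In Wistar the level of Map1b was close to that of Tubb3, with a ratio of 0.987, and in SHR the ratio was 0.674.

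Map2, the MAP of dendrites and cell bodies, was with Dclk1 one of the members with the lowest log2 differences. It averaged 10.3 per 10000 in the Wistar neurons and 6.43 in the SHR neurons, a percent change of -37.3% and a log2 difference of -0.60. The order of the members depends on the setting, since Dclk1 was lower than Map2 when the total left out the 50 most abundant genes (-0.61 against -0.58) and Dcx was lowest at a pseudocount of 0.1 (-1.02, Map2 -0.67). Mapt, which encodes the axonal protein tau, was nearly level with Map2 in Wistar at 10.6 per 10000 and stood at 8.96 in SHR (log2 difference -0.22). The Map2 to Mapt ratio was therefore 0.969 in Wistar and 0.718 in SHR. Map4, the related MAP known mainly from cells other than neurons, was at 2.08 and 1.76 (-0.16). Set against Tubb3, which was higher in SHR, the contrast was wider by construction. The level of Tubb3 was 4.37 times that of Map2 in Wistar and 9.07 times in SHR.

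The doublecortin family, whose proteins bind between the filaments of the microtubule wall, was lower in SHR in all 4 genes. All but Dclk1 averaged under 1 per 10000, where 71.2% of all genes past the minimum were lower. Of genes averaging at least 1, as Dclk1 did, 45.5% were lower. Dclk1, which joins doublecortin domains to a kinase, was at 1.69 per 10000 in Wistar and 0.835 in SHR, a percent change of -50.6% and a log2 difference of -0.55. Dcx, doublecortin itself and a marker of young neurons, was at 0.478 and 0.184 (-0.32). Dclk2 was at 0.448 and 0.187 (-0.29), and Dclk3 at 0.546 and 0.307 (-0.24). By percent change of the mean, Dcx (-61.4%) and Dclk2 (-58.2%) were the lowest of the 49 members past the minimum, but at means under 0.5 per 10000 the unknown counting error weighs most.

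Further MAPs that bind along the wall were mixed. Map6, the stable tubule only polypeptide known for cold-stable microtubules, was at 1.14 per 10000 in Wistar and 0.899 in SHR (log2 difference -0.17). Of the Map7 genes, whose proteins recruit kinesin-1, Map7d1 went from 2.00 to 1.42 (-0.31) and Map7 from 0.950 to 0.574 (-0.31). Map7d2 was at 1.60 and 1.65, so its means hardly differed (0.03). Map9 was at 1.37 and 1.13 (-0.15). Map10 and Map6d1 were under the minimum and Map7d3 was listed at 0.

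**Figure D3:**
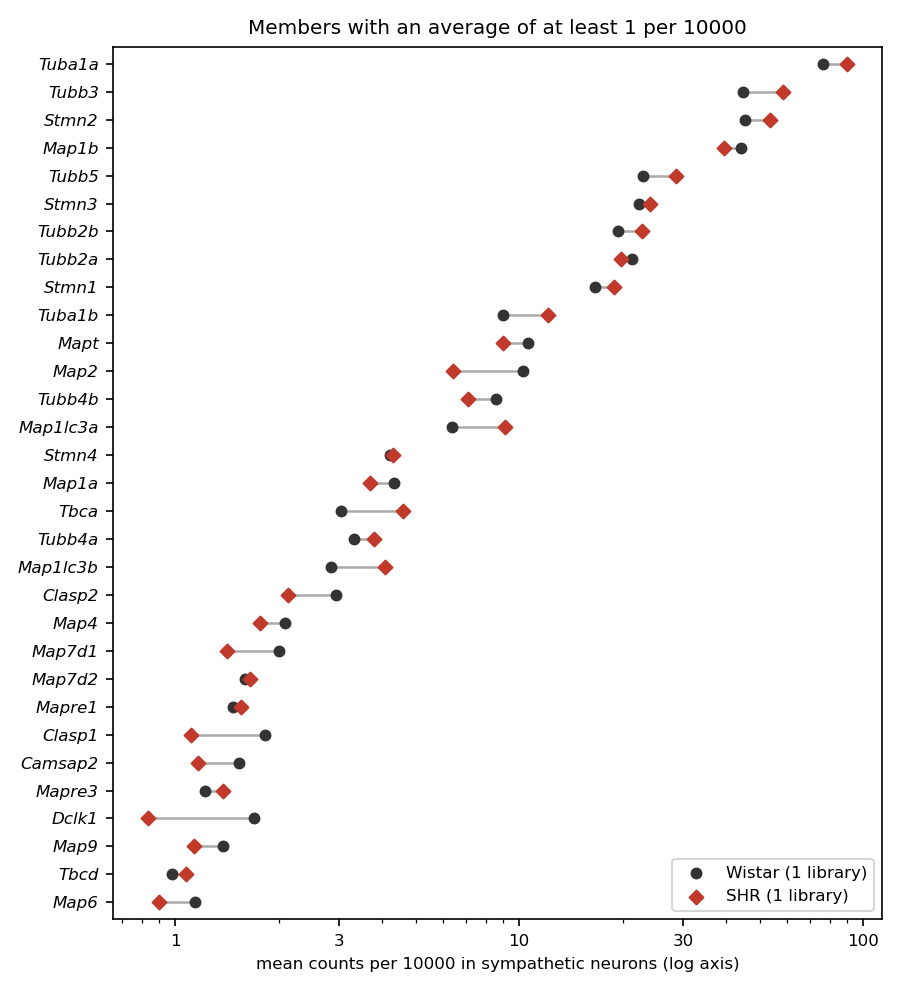
Black circles (Wistar) and red diamonds (SHR) give the mean counts per 10000 on a log axis for the 31 members with an average of at least 1, 1 library per strain. The tubulins and stathmins at the top mostly have the diamond to the right, and Map2, Dclk1, Clasp1 and Clasp2 have it to the left.

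At the plus end the direction was mixed, with 3 of 6 genes past the minimum lower. The Clasp genes, whose proteins rescue shrinking microtubules, were lower in SHR. Clasp1 was at 1.82 per 10000 in Wistar and 1.11 in SHR (log2 difference -0.42), and Clasp2 at 2.93 and 2.12 (-0.33). The Mapre genes, which encode the end-binding proteins EB1 and EB3, were slightly higher, Mapre1 at 1.47 and 1.55 (0.05) and Mapre3 at 1.22 and 1.38 (0.10). Clip1 was at 0.750 and 0.456 (-0.27), whereas Clip2 was almost equal at 0.867 and 0.886 (0.01). Clip4 was under the minimum, and Clip3, known as a neuronal gene, was listed at 0 in both libraries.

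At the minus end and at sites of nucleation all 8 genes past the minimum were lower. All but Camsap2 averaged under 1 per 10000, where 71.2% of all genes past the minimum were lower. Of genes averaging at least 1, as Camsap2 did, 45.5% were lower. Camsap2 was at 1.53 per 10000 in Wistar and 1.16 in SHR (log2 difference -0.22), Camsap1 at 0.745 and 0.513 (-0.21) and Camsap3 at 0.342 and 0.230 (-0.13). Tubg1, the main gamma tubulin, was at 0.514 and 0.458 (-0.05), and Tubg2 at 0.260 and 0.170 (-0.11). The complex genes Tubgcp2, Tubgcp3 and Tubgcp5 had log2 differences from -0.17 to -0.08 at means of at most 0.338 per 10000, and Tubgcp4 and Tubgcp6 were under the minimum. Over the 7 gamma tubulin and complex genes the means summed to 1.67 per 10000 in Wistar and 1.13 in SHR, small beside the 206.7 and 243.2 of alpha and beta tubulin.

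With a pseudocount of 1 the highest log2 differences in the set belonged to a folding cofactor and the LC3 genes. Tbca, whose product holds beta tubulin during folding of the dimer, was at 3.02 per 10000 in Wistar and 4.61 in SHR, a percent change of 52.4% and a log2 difference of 0.48. Tbcd (0.976 and 1.07, 0.07) and Tbcc (0.520 and 0.616, 0.09) were slightly higher. Tbce, mutated in a mouse motor neuronopathy, was lower at 0.930 and 0.564 (-0.30), and Tbcb was at 0.116 and 0.108 (-0.01). Map1lc3a, the autophagosome protein LC3A, was at 6.37 and 9.12 (43.2%, log2 difference 0.46), and Map1lc3b at 2.84 and 4.08 (43.6%, 0.40). The LC3 genes thus differed in direction from the MAP1 family, although LC3 was first found as a light chain of those proteins.

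The higher means of tubulins and stathmins have to be read against genes of like abundance. Abundant genes were more often higher in SHR, in 72.2% of the 273 genes with an average of at least 5 per 10000, whose median log2 difference was 0.24. Of the 14 members at this level 9 were higher (64.3%), with a median of 0.20. Tuba1a (0.23) and Tubb2b (0.22) lay just under the middle of these genes, and Stmn2 lay at their median. The highest of these members, Map1lc3a, had 75.8% of the 273 genes below it. The tubulins and stathmins therefore did not stand out from other abundant transcripts.

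The lower members averaging at least 5 per 10000 lie by definition among the 76 of the 273 genes (27.8%) that were lower in SHR. Map2 ranked 10 from the lowest among the 273 genes, of which 4.4% were lower by 0.5 or more. Tubb4b ranked 35, Mapt 37, Map1b 42 and Tubb2a 53. Among the 1676 genes with an average of at least 1, 45.5% were lower in SHR, and 14 of the 31 members were (45.2%). In that larger group Map2 ranked 72 and Dclk1 83 from the lowest. Under this average the members past the minimum were lower in 15 of 18 cases (83.3%), with a median of -0.15, and of all genes averaging from 0.1 to under 1 per 10000, 71.2% were lower.

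**Figure D4:**
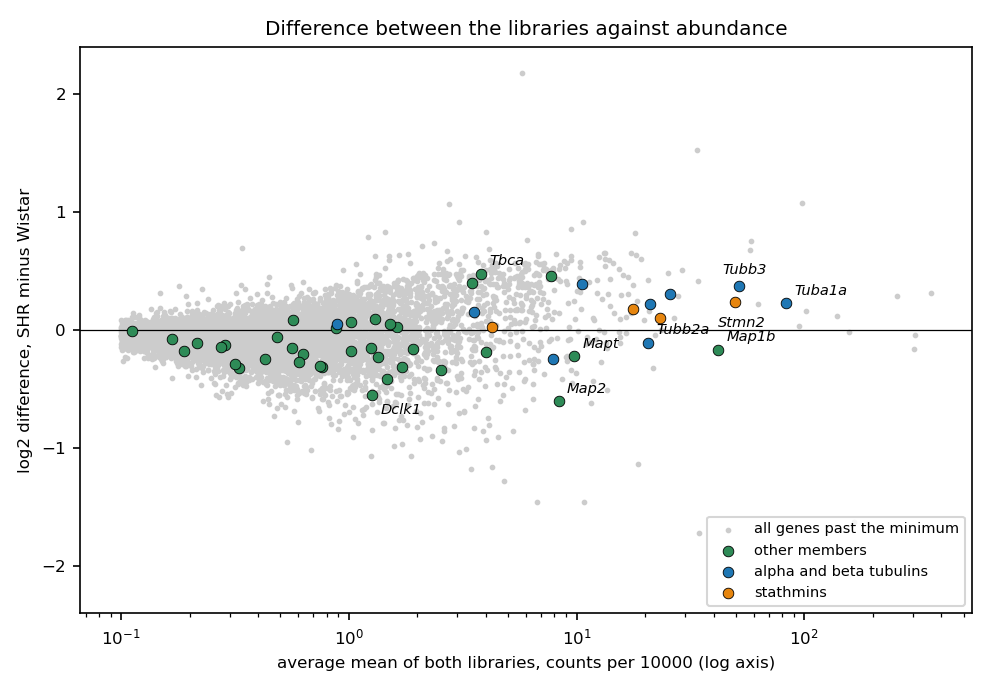
Grey points are the 7621 genes past the minimum, placed by the average mean of both libraries (counts per 10000, log axis) and the log2 difference, SHR minus Wistar, with members in colour. The cloud shifts upward with abundance, tubulins and stathmins lie inside it, and Map2 (-0.60) and Dclk1 (-0.55) lie toward its lower edge.

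Gene span moved with the difference as well. When the 7289 genes with a span in GRCr8 were split into 10 equal groups by span, the median log2 difference was 0.09 in the shortest and -0.12 in the longest. The tubulin genes are short and most MAP genes long. Of the 7 members in the shortest group 2 were lower in SHR, namely Tubb2a and Tubb4b, and of the 9 in the longest group 8 were lower. These shares were near those of all genes in the same groups, of which 27.2% and 85.6% were lower. Both members past the size of 0.5, Map2 and Dclk1, belong to the longest group. Over the shorter 5 groups 13 of 21 members were higher (61.9%, all genes 47.5%), and over the longer 5 groups 21 of 28 were lower (75.0%, all genes 79.9%). In the longest group the median of the members was -0.32, beside -0.12 for all its genes. Of the 7 higher members among the longer groups, Tbcd lay in the longest group, Map7d2 in the group before it and Tbca in the eighth. Stmn2, in the seventh, was the only stathmin among the longer groups and had the highest log2 difference of the family. The part of span in these differences was not tested.

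**Figure D5:**
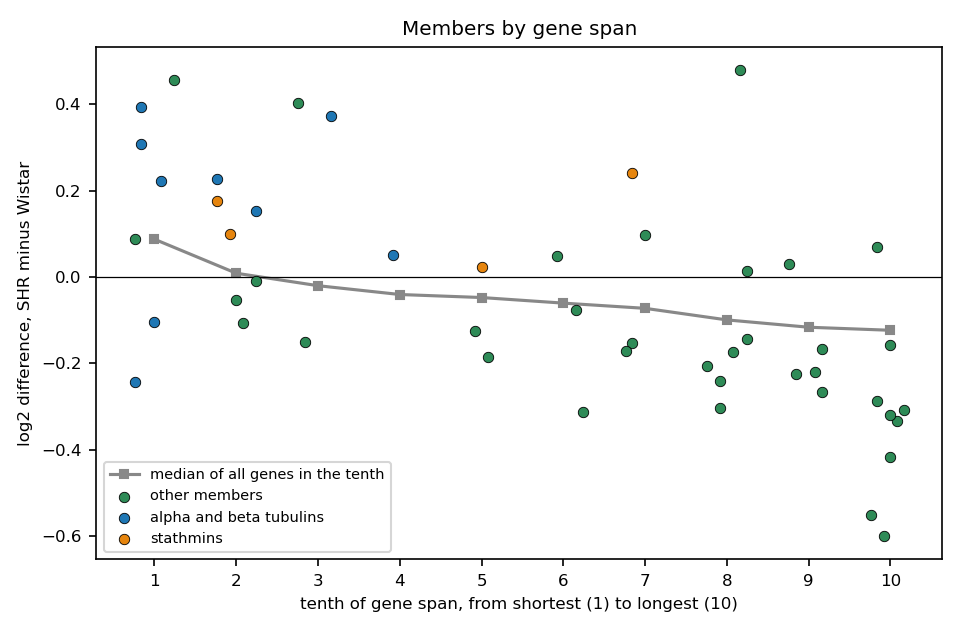
Members past the minimum are placed by the span group they fall in (1 shortest, 10 longest; points are spread sideways for legibility) and by log2 difference, SHR minus Wistar, and the grey line is the median of all genes in each group. The line runs from 0.09 to -0.12, and the members in the longest group lie below 0 except Tbcd.

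Other genes of the microtubule system, from lists that hold no member, showed the same mixture. Of 99 such genes 65 passed the minimum, and 45 of them were lower in SHR (69.2%, beside 65.6% of all genes). The chaperonin and prefoldin genes, whose complexes fold new tubulin and actin, were mostly higher, in 10 of 15. Of all genes averaging at least 1 per 10000, 54.5% were higher. The highest average belonged to Pfdn2, at 2.85 per 10000 in Wistar and 4.14 in SHR (log2 difference 0.42). All 6 prefoldin genes listed were higher, and of the 8 chaperonin genes past the minimum 4 were. Cct6a had the lowest difference in the list, at 2.96 and 2.18 (-0.32).

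Further microtubule-binding proteins were lower in 19 of 24 genes (79.2%), beside 65.6% of all genes past the minimum and 71.2% of those averaging under 1. Dst, a giant linker of microtubules to other filaments and the most abundant gene of its list, was at 14.3 per 10000 in Wistar and 8.98 in SHR (log2 difference -0.61). Its relative Macf1 was at 3.31 and 1.32 (-0.89), lower than any member. In the other direction Tppp3, a small tubulin polymerization promoting protein, was at 6.83 and 10.8 (0.59). Pafah1b1, the dynein regulator LIS1, was almost level at 7.93 and 7.49 (-0.07).

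Enzymes that modify tubulin were lower in 6 of 8 genes. Agtpbp1, which trims glutamate from tubulin tails and had the highest average, was at 2.29 per 10000 in Wistar and 2.20 in SHR (log2 difference -0.04). Atat1, the alpha tubulin acetyltransferase, was at 0.913 and 0.274, a percent change of -70.0% and a log2 difference of -0.59. The deacetylases Hdac6 (0.273 and 0.172) and Sirt2 (0.828 and 0.598) were lower too. Severing and depolymerising enzymes were lower in 4 of 5 genes, with Kif2c the most abundant at 1.11 and 0.840 (-0.20) and Spast at 0.574 and 0.507 (-0.06). Kinases of tau and the MAPs were lower in 11 of 13. The lists of enzymes and kinases are short, and the shares lower of 75.0%, 80.0% and 84.6% stand beside the same 65.6% and 71.2% of all genes. Gsk3b, the most abundant of the kinases listed, was level at 1.89 in both libraries. Mark2 (0.639 and 0.269, -0.37) and Mark4 (0.658 and 0.300, -0.35) had the lowest differences of the kinase list.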

How the data were processed

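Stellate ganglion cells of 1 Wistar and 1 SHR library were sequenced with 10x Genomics single cell 3′ v3 chemistry. Per the submitters' processing notes, Cell Ranger 3.0.2, Seurat 3 and the rat build Rnor_6.0 were used. For each library the authors deposited 1 natural log value per gene, which is ln(1 + mean), the mean being counts per 10000 over the sympathetic neuron cluster. Filters on cells, the treatment of doublets, the number of neurons and their depth are not given in the sources used here, so counting error is unknown and means over cells allow no search for doublets. The authors' table of fold changes and p-values was not used, nor were its 2 columns with shares of cells, which name no strain.

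Values were converted back to means, 4 lines whose names occur more than once were dropped, and differences of log2(1 + mean) were computed with Python 3.11.15, NumPy 2.4.6 and pandas 2.3.3. The minimum was an average of 0.1 per 10000 and the size rule a log2 difference of 0.5, in place of a test. The members and lists were chosen with earlier results of these data known. Every member averaging at least 1 per 10000, every member past the size rule and the highest member of each role is named, and the rest are named or counted. From the other lists the most abundant gene and genes past the size rule are named, and further ones were chosen after their values were seen. Gene spans and promoters come from RefSeq on GRCr8, matched by symbol or synonym (7289 of 7621 genes past the minimum, 95.6%, have a span), and spans were used only to rank genes. The alternatives were other pseudocounts, minimums, sizes, scalings and a centring.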

Additional observations from a re-analysis of the deposited data

How the results depend on the processing

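No paired analysis was possible because only 1 library of each strain was sequenced. In place of replicate error, a log2 value was said to move beyond 0.05 and a count beyond 1.5 times. Under the 4 other totals and the centring tried, the 49 members past the minimum kept their direction, except Tbcb. Another total rescales all genes of a library alike, so only members near 0 could change direction. Tbcb went to 0.042 when the median difference of all genes was set to 0, which adds 0.052 to every gene. A pseudocount cannot change the direction of a gene, so the 2 other pseudocounts tried say nothing on direction. The 29 members lower in SHR became 14 with a minimum of 1 per 10000, where 31 members remain. The median of the members, -0.11, was -0.23 and -0.016 at pseudocounts of 0.1 and 10, -0.054 when every listed gene above 0 was kept, 0.029 at a minimum of 1 and -0.055 after centring. Its sign thus rests on members of low mean. The 2 members lower by the size rule became 10 and 0 with pseudocounts of 0.1 and 10, 10 and 0 with sizes of 0.25 and 1, and 1 after centring. The 0 members higher by that rule became 3 with a pseudocount of 0.1, 6 with a size of 0.25, and 2 after centring, when the total left out mitochondrial and ribosomal protein genes, and when it left out the 50 most abundant genes. These counts follow from the pseudocount, the size or the shift itself. Depth is unknown, so differences of genes with low means are the least certain.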
